A study of Homo sapiens with 4 samples.

Results

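Progenitor 2 is 1 of 2 classes named Progenitor in the deposited annotation of nuclei from enteric ganglioids, 3D cultures of enteric nervous system cells grown from H9 human embryonic stem cells. Its members here were the nuclei whose deposited class is Progenitor 2, which were 3800 of the 14812 annotated nuclei and of the 25306 deposited nuclei. The series holds 4 samples, 2 untreated controls and 2 given 2 µM PP121 between days 15 and 20 of their differentiation, all of the same line. The labels number 2 replicates in each group, and whether samples of 1 number came from 1 differentiation split between the groups is not stated. The deposited annotation dates replicate 1 of both groups to day 42 and replicate 2 of both groups to day 38, so all nuclei were collected well after the compound was withdrawn. The controls held 1155 (replicate 1) and 683 (replicate 2) Progenitor 2 nuclei and the PP121 samples 1107 and 855, and every list of values below keeps that order. Their summed counts of unique molecular identifiers (UMIs) ranged from 5403954 to 8938818 per sample, with medians of 6242 to 6706 UMIs per nucleus.

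PP121 is a multi-target inhibitor of receptor tyrosine kinases, among them the receptors for platelet-derived, vascular endothelial and epidermal growth factors. Enteric neurons and glia descend from vagal neural crest cells, which enter the gut, divide and differentiate under the influence of RET, endothelin, BMP, WNT and Notch signals. Progenitors keep dividing and carry SOX2 and NOTCH1, and proliferating cells among them express MKI67, a protein of cycling nuclei.

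The marker genes that the study lists for progenitors were high in these nuclei. Averaged over the 4 samples, PAX3, a transcription factor of the dorsal neural tube and neural crest, stood at 721 CPM (a gene's UMIs per 1000000 UMIs of the class in that sample) in Progenitor 2 and 247 CPM in Progenitor 1, and NOTCH1, SOX2, MEF2C and PAX7 were also highest in Progenitor 2 among the 6 classes. NFIA and MKI67 were higher in Progenitor 2 than in Progenitor 1 but highest in another class. These genes were used to name the class, so their levels describe it and test nothing. Genes that define enteric neural crest and glia were at or near 0 in Progenitor 2, with means of 0.0386 CPM for HAND2, 0.271 for FOXD3, 0.595 for RET, 0.692 for S100B and 0.137 for GFAP, and SOX10 reached 10.3 CPM. Genes of radial glia and neuroepithelium ranged widely, from 503 CPM for PTPRZ1, 80.6 for HES5 and 50.9 for PAX6 to 4.36 for FABP7, 0.115 for LHX2 and 0.0945 for HOPX, and PAX6 was highest in the class annotated as Unknown. The class is therefore called here by its deposited name only.

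The overlap of Progenitor 2 with a joint cluster of mostly Progenitor 1 nuclei was smaller in the treated than in the untreated samples. When all annotated nuclei were clustered together without regard to the deposited classes, 13.4% and 12.9% of the Progenitor 2 nuclei of the controls fell in the cluster made up mostly of Progenitor 1. In the PP121 samples the shares were 4.52% and 1.17%. Their exact 95% intervals, which cover counting error only, did not reach those of the controls. Over samples an exact permutation test gave p = 0.33, the smallest possible with 2 samples against 2. Whether the classes were drawn differently or the nuclei themselves differed was not tested. The authors' annotation also left out 372 and 196 control nuclei within the stated quality limits and none of the PP121 nuclei. The part of either difference in the results below was not tested beyond the counts given beside them.

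With PP121, the leading changes in Progenitor 2 were rises of the morphogens WNT3A and BMP5 and the WNT receptor ROR2, a broad rise of glycolytic and ribosomal protein genes, and falls of mitochondrially encoded transcripts, of PAX8 and its neighbours and of MEF2C. These calls depend on comparing samples of the same day. Counts were summed per sample and tested with edgeR's quasi-likelihood test at an adjusted p under 0.05. From here, values of single genes per sample are CPM on library sizes scaled by edgeR's TMM method, whereas class averages and list totals are unscaled CPM. Without the day as a block, 0 of 18885 genes passed (0%), while 1774 (9.39%) had an unadjusted p under 0.05 and DESeq2's Wald test called 98. With the replicate number, which marks the shared day, as a block, 1267 genes passed, 828 higher with PP121 (4.38% of genes tested) and 439 lower (2.32%). Genes are said below to have risen or fallen where they passed with the block, and none of them passed without it. Of the 1267 genes, 724 were above both controls in both PP121 samples, 345 were below both, and in 198 the groups overlapped. Over all 18885 genes, 20.1% lay above both controls and 19.8% below both.

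These 1267 calls rest on 1 residual degree of freedom per gene and on few samples, and p-values measure only the spread between these 4 samples, which may stem from as few as 2 differentiations. The pairing itself rests on the labels and the annotated days: a further deposited column of sample names calls the sample labelled control replicate 1 control replicate 2, and the sample labelled control replicate 2 a stage 2 control, and the calls were not tested under that naming. The count was 629 among nuclei that were Progenitor 2 both as deposited and in the joint clusters, a set chosen after the data were seen, and 616 of these were among the 1267. In the joint cluster of mostly Progenitor 2 nuclei 1306 genes passed, 1018 of them shared with the deposited class.

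Among genes that averaged at least 10 CPM the largest rise was in WNT3A, a secreted WNT ligand of the dorsal neural tube. It stood at 2.07 and 2.26 CPM in the controls and at 10.46 and 29.2 CPM with PP121. Both treated samples were above both controls, with a log2 fold change of 2.99 ± 0.30 (SE, n = 2 per group, edgeR adjusted p = 8.78e-12). BMP5, a bone morphogenetic protein, stood at 1.85 and 9.41 CPM in the controls and at 21.04 and 56.3 CPM with PP121. Its groups did not overlap either (log2 fold change 2.92 ± 0.22, edgeR adjusted p = 1.81e-16). ROR2, a receptor for WNT ligands, had 6.09 and 18.3 CPM in the controls and 29.9 and 82.5 CPM with PP121 (log2 fold change 2.22 ± 0.17, edgeR adjusted p = 2.86e-16). In all 3 genes the day 38 sample was above the day 42 sample of its own group, so the untreated day 38 sample lay closest to the treated ones.

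These transcripts were found in a minority of nuclei. WNT3A had a UMI in 13 of 1155 and 12 of 683 control nuclei and in 56 of 1107 and 99 of 855 PP121 nuclei. BMP5 was detected in 11 and 31 control nuclei and in 71 and 129 PP121 nuclei. Nuclei with UMIs of both genes numbered 2 and 4 in the controls and 22 and 38 with PP121. After every nucleus was thinned to 2000 UMIs, which left out 4 to 7 shallower nuclei per sample, BMP5 remained in 0.261% and 1.03% of control nuclei and in 3.45% and 8.34% of PP121 nuclei. WNT3A remained in 0.348% and 0.886% of control nuclei and in 1.91% and 4.23% of PP121 nuclei. In enteric neurons thinned in the same way, WNT3A was found in 0.160% to 0.821% of nuclei and BMP5 in 0.262% to 2.46%, from medians of 7210 to 8102 UMIs per nucleus. For both genes, all treated values of Progenitor 2 were above every value of the neurons. Control neurons had BMP5 in 0.262% and 1.36% of nuclei, close to control Progenitor 2, a level that cannot be told from free RNA. Control neurons had WNT3A in 0.175% and 0.160% of nuclei, below control Progenitor 2. The WNT3A shares of control Progenitor 2 rested on 4 and 6 nuclei, and the part of free RNA in them was not tested. ROR2 was different, since thinned shares overlapped between groups, at 1.31% and 3.40% without and 3.27% and 11.4% with PP121. In neurons the thinned shares of ROR2 were 1.05% and 3.29% without and 2.08% and 9.34% with PP121, close to Progenitor 2 of the same sample.

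The other large rises among protein-coding genes were in CASZ1, TMEM132C, TRPM3, HILPDA, CNTN5, EPHA7 and DCHS2. CASZ1, a zinc finger transcription factor, had 5.98 and 11.3 CPM in the controls and 24.3 and 62.9 CPM with PP121 (log2 fold change 2.26 ± 0.19, edgeR adjusted p = 9.02e-15). TMEM132C, a membrane protein gene, had 39.9 and 54.4 CPM in the controls and 134 and 285 CPM with PP121, a log2 fold change of 2.07. TRPM3, a cation channel, rose from 22.2 and 30.1 CPM to 61.4 and 156 CPM. HILPDA, a lipid droplet protein induced under low oxygen, rose from 5.33 and 4.33 CPM to 13.0 and 25.4 CPM. The log2 fold changes of TRPM3, HILPDA, CNTN5, EPHA7 and DCHS2 ran from 1.92 down to 1.69, and the groups of all 5 were apart.

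**Figure D1:**
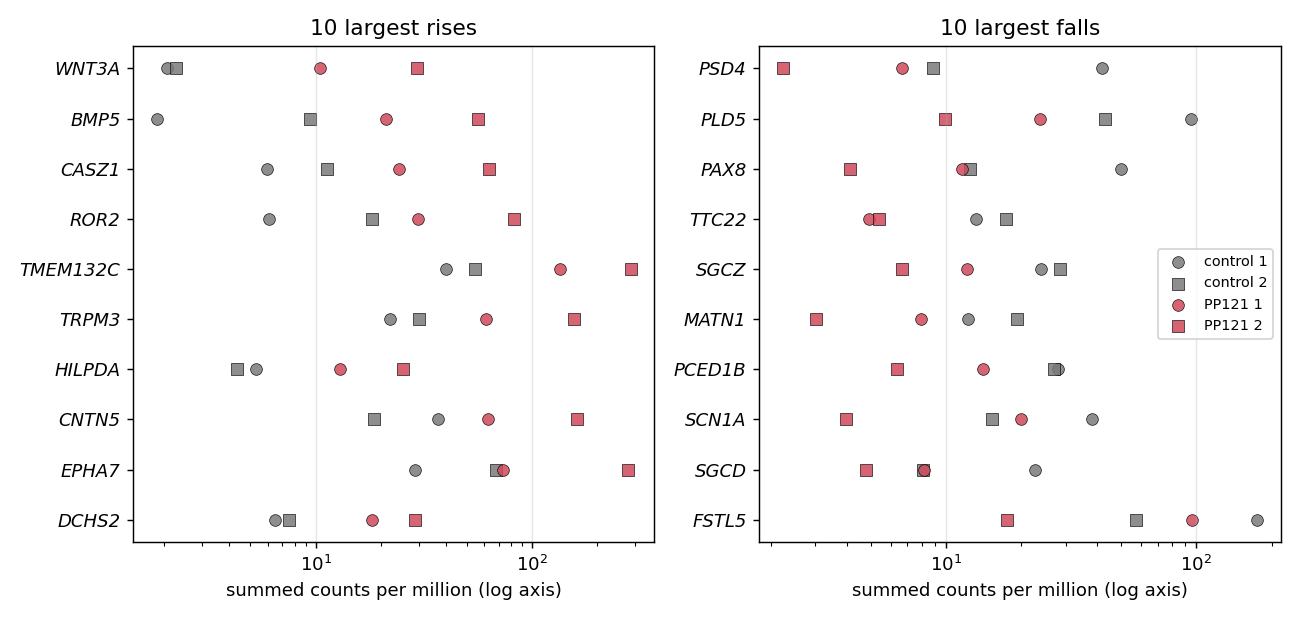
CPM (log axis) in each of the 4 samples for the 10 protein-coding genes averaging at least 10 CPM with the largest rises and the 10 with the largest falls in Progenitor 2 with the replicate block. Circles are replicate 1 (day 42) and squares replicate 2 (day 38), grey for control and red for PP121. The treated points lie to the right of both controls for every gene on the left, and to the left of both for all on the right but SCN1A, SGCD and FSTL5.

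The largest falls were in PSD4, PLD5 and PAX8. PSD4, an exchange factor for the small GTPase ARF6, had 41.96 and 8.85 CPM in the controls and 6.68 and 2.23 CPM with PP121 (log2 fold change -2.46 ± 0.25, edgeR adjusted p = 8.62e-12). PAX8, a paired-box transcription factor of the hindbrain and ear region and of kidney and thyroid, had 49.8 and 12.4 CPM in the controls and 11.6 and 4.13 CPM with PP121 (log2 fold change -1.94 ± 0.21, edgeR adjusted p = 1.41e-10). For both, control replicate 1 was far above the other 3 samples, and the untreated day 38 sample lay just above the treated day 42 sample. PLD5, a member of the phospholipase D family, fell from 95.7 and 43.3 CPM to 23.7 and 9.86 CPM. In the joint cluster of mostly Progenitor 2 nuclei all 3 still fell, but by less, at -1.63 for PSD4, -1.12 for PLD5 and -1.19 for PAX8. TTC22, SGCZ, MATN1 and PCED1B fell by 1.54, 1.46, 1.46 and 1.44 on the log2 scale with groups apart. SCN1A, a sodium channel of neurons, SGCD, a sarcoglycan, and FSTL5, a follistatin-like protein, fell by 1.26, 1.20 and 1.20 within days although their groups overlapped. SGCZ rested on few nuclei: 10 nuclei held 94.7% of its UMIs in control replicate 2, and without the 3 nuclei richest in it per sample its log2 fold change was -0.87 (edgeR adjusted p = 0.056). Within G1 nuclei the value for MATN1 was -0.38.

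PAX8 and PLD5 were much commoner in enteric neurons than in Progenitor 2. After thinning, the share of Progenitor 2 nuclei with PAX8 was 5.75% and 1.77% without and 1.27% and 0.353% with PP121, and the share of neurons was 33.96% and 15.1% without and 26.2% and 5.34% with it. For PLD5 the shares were 7.23% and 2.51% without and 3.09% and 1.53% with PP121 in Progenitor 2, and 40.2% and 19.5% without and 28.5% and 8.62% with it in neurons. In both classes the treated share was the lower on each day, and the part of neuronal or free RNA in the Progenitor 2 values was not tested. TTC22 did not pass among nuclei that were Progenitor 2 in both annotations, where its log2 fold change was -0.75 (edgeR adjusted p = 0.22).

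Several of the genes that changed are neighbours on the genome. PSD4 (chromosome 2, 113157325 to 113209396, plus strand, GRCh38), PAX8 (113215997 to 113278950, minus strand) and the antisense gene PAX8-AS1 (113211522 to 113276581, plus strand), which overlaps PAX8, all fell, PAX8-AS1 by 1.90 on the log2 scale with overlapping groups. ZIC1 and ZIC4 overlap on chromosome 3 on opposite strands and both rose. Among genes known by clone names, the largest falls were in AP003464.1, AL356277.3 and AL357507.1, and the last 2 overlap on chromosome 6. AL357507.1 had 412 and 63.6 CPM in the controls and 162 and 4.77 CPM with PP121. Its groups overlapped, since the untreated day 38 sample lay below the treated day 42 sample. The largest rises of this kind were in AL008633.1 (log2 fold change 1.99), AL137139.2 (1.83) and AC006145.1 (1.64), the last of which overlaps CACNA2D1. Whether the counting used strand is not given in the sources used here, so reads of overlapping genes may not have been told apart.

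The 5 genes with the smallest p-values without the block were AL137139.2, NRG1, MT-CO3, MT-CO1 and MT-ATP6, at edgeR adjusted p-values of 0.157 to 0.170. NRG1, the neuregulin that binds ERBB3 and ERBB4, had the smallest of these p-values among protein-coding genes. It had 85.2 and 83.6 CPM in the controls and 197 and 189 CPM with PP121, a log2 fold change of 1.19 ± 0.12 (edgeR adjusted p = 1.77e-11 with the block). The samples of the 2 days were close within each group. NRG1 is also a neuron marker of the study, and after thinning its share of Progenitor 2 nuclei was 10.9% and 10.2% without and 20.8% and 19.98% with PP121, and of neurons 22.3% and 24.1% without and 33.9% and 35.7% with it.

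Of 38 tested genes of the WNT pathway, 9 rose and 1 fell, with a median log2 fold change of 0.20 against -0.00445 over all genes. Among ligands and agonists, WNT3, WNT9A and the R-spondin RSPO1 rose beside WNT3A. WNT3 had 24.2 and 31.6 CPM in the controls and 57.4 and 55.3 CPM with PP121 (log2 fold change 1.04 ± 0.15), and RSPO1, which amplifies WNT signals, had 10 and 24 UMIs in the controls and 58 and 84 with PP121. Both groups were apart in each. Among receptors ROR1 rose with ROR2, from 162 and 178 CPM to 333 and 268 CPM, and LGR4, a receptor for R-spondins, fell by 0.35 on the log2 scale. NKD1, an inhibitor induced by WNT signals, rose by 0.64, and SFRP2, a secreted antagonist, and the nuclear factor TCF7L2 rose by 0.68 and 0.37 with overlapping groups. No other of the 38 passed.

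Of 28 tested genes of BMP and TGF-beta signalling, 5 rose and 1 fell, with a median log2 fold change of 0.19. Besides BMP5, the 4 that rose are targets or intracellular parts of the BMP branch. ID1, an inhibitor of basic helix-loop-helix factors and an immediate BMP target, had 58.5 and 41.8 CPM in the controls and 92.0 and 86.6 CPM with PP121 (log2 fold change 0.84 ± 0.14, edgeR adjusted p = 6.82e-06). ID3 rose by 0.80, SMAD9, a signal transducer, by 1.02 and SMAD6, an inhibitor of the pathway, by 0.60 on the log2 scale. The groups of all 4 were apart, though SMAD6 did not pass among nuclei that were Progenitor 2 in both annotations (edgeR adjusted p = 0.077). FSTL5 was the member that fell.

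Factors of the dorsal neural tube and roof plate moved the same way. Of 12 tested, 5 rose, none fell and the median log2 fold change was 0.80. ZIC1, a zinc finger factor of the dorsal neural tube, had 44.1 and 58.7 CPM in the controls and 100.3 and 120 CPM with PP121 (log2 fold change 1.11 ± 0.13, edgeR adjusted p = 1.97e-09). ZIC2, ZIC4 and ZIC5 rose by 1.12, 0.93 and 1.32 on the log2 scale. OLIG3, a helix-loop-helix factor of dorsal progenitors, had 0 and 5 UMIs in the controls and 27 and 26 with PP121. All 5 had groups apart. PAX3 and PAX7, which mark the same domain, had log2 fold changes of 0.05 and 0.14 and did not pass.

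**Figure D2:**
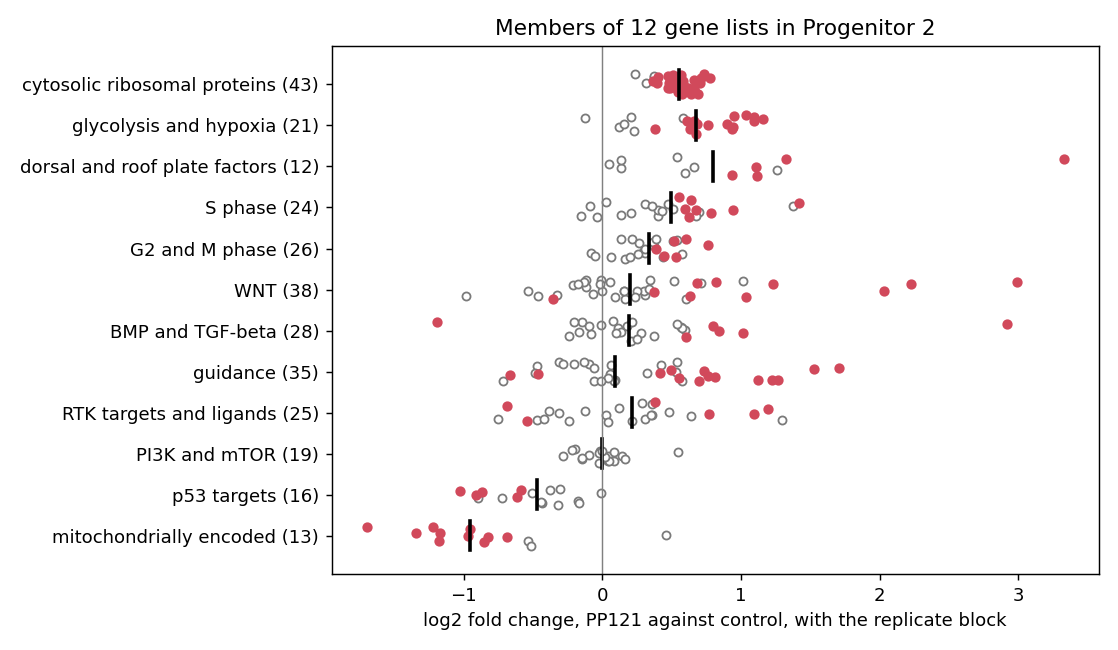
Log2 fold change of each tested member of 12 gene lists in Progenitor 2, PP121 against control with the replicate block. Red points passed at an adjusted p under 0.05, open points did not, black bars are list medians and numbers of members tested are in parentheses. Ribosomal protein and glycolytic genes lie almost all to the right of 0, mitochondrially encoded genes to the left but for 1, and genes of PI3K and mTOR signalling around 0.

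Glycolytic and hypoxia-responsive genes rose more widely. Of 21 tested, 15 rose and none fell, with a median log2 fold change of 0.67. ENO1, the glycolytic enolase, had 65.0 and 103 CPM in the controls and 138 and 240 CPM with PP121 (log2 fold change 1.16 ± 0.12, edgeR adjusted p = 5.70e-11). GAPDH, which follows aldolase in the pathway, had 82.3 and 96.4 CPM in the controls and 167 and 201 CPM with PP121. Both were apart. HK2, the first enzyme of glycolysis, GPI, PDK1, which keeps pyruvate from mitochondria, the mitophagy receptor BNIP3 and the glucose transporter SLC2A1 rose by 1.09, 0.90, 0.95, 0.94 and 0.94 on the log2 scale. PFKFB4, which sets the level of an activator of glycolysis, rose by 1.09, but its untreated day 38 value of 94.3 CPM lay above the treated day 42 value of 91.6 CPM. VEGFA, ADM, HK1 and ALDOA did not pass, and VEGFA had 35.5 and 43.7 CPM in the controls and 43.5 and 41.6 CPM with PP121. The rise was also seen with only nuclei of phase G1 (14 of 21 rose) and with only nuclei placed in the class by both annotations (14 of 21).

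The promoters of the 4 risen members with the smallest p-values and only 1 start in the RefSeq table are shown because these genes moved together and many of them are known targets of the hypoxia-inducible factors, which bind the letters ACGTG or GCGTG. The 250 bases before each start are given 5′ to 3′ on the strand of the gene, with matches to either motif on either strand in capitals. Coordinates are of GRCh38.p14, chr1:8878687-8878936 for ENO1 (minus strand), chr12:6535014-6535263 for GAPDH (plus), chr3:48556804-48557053 for PFKFB4 (minus) and chr19:34364742-34364991 for GPI (plus).
ENO1: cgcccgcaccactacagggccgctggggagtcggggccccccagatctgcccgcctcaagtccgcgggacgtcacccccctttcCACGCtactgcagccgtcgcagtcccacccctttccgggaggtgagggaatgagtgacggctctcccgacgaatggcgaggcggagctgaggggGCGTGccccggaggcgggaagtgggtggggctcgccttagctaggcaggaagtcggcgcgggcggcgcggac
GAPDH: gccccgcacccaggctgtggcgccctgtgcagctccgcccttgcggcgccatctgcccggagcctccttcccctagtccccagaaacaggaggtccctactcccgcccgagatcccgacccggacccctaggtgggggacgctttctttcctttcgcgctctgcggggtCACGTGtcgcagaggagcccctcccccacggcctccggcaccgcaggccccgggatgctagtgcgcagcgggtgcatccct
PFKFB4: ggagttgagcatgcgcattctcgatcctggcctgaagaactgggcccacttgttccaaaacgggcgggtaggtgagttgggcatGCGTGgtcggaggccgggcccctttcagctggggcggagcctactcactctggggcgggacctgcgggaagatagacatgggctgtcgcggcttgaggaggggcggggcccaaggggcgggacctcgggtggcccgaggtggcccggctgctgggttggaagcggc
GPI: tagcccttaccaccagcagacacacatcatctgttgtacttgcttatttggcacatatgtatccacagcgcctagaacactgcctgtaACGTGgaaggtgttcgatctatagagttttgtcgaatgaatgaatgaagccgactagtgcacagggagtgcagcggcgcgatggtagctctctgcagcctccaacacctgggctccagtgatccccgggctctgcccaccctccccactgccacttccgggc
The motif was found in 16 of 22 promoters (72.7%) of the 15 risen members, all of which were matched by symbol, in 52.6% of promoters of all genes tested in Progenitor 2 and in 43.2% of all 35116 promoters. CACGTG, as in GAPDH, holds overlapping matches on both strands. These matches describe letters and show no binding.

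Cytosolic ribosomal protein genes were the list with the most uniform change. Of 43 tested, 38 rose and none fell, and the fold changes lay between 0.23 and 0.78 on the log2 scale with a median of 0.55. Together they made up 6378 and 6129 CPM in the controls and 10221 and 7704 CPM with PP121. RPS6, of the small subunit, had 118 and 136 CPM in the controls and 213 and 221 CPM with PP121 (log2 fold change 0.78 ± 0.12, edgeR adjusted p = 1.46e-06). The groups were apart for 41 of the 43 genes. The number that rose depended on the nuclei taken. It was 23 of 43 among nuclei placed in the class by both annotations and 27 with equal numbers of nuclei per sample. It was 31 when the control nuclei left out by the authors were put back. That step raised the controls only to 1160 and 686 Progenitor 2 nuclei. The paper gives a high ribosomal gene percentage as its reason for removing clusters from the control data. Whether that removal lowered the control values here was not tested beyond this count. The median share of ribosomal counts per nucleus was 0.945% and 0.835% in the controls and 0.980% and 0.971% with PP121.

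Mitochondrially encoded transcripts fell, with 10 of 13 lower, none higher and a median log2 fold change of -0.96. Their total was 334 and 311 CPM in the controls and 176 and 136 CPM with PP121. MT-CO3, of cytochrome c oxidase, had 51.6 and 47.8 CPM in the controls and 18.8 and 20.5 CPM with PP121 (log2 fold change -1.35 ± 0.16, edgeR adjusted p = 1.39e-09). MT-ATP6, of ATP synthase, had 31.1 and 24.9 CPM in the controls and 8.94 and 8.27 CPM with PP121. Both were apart. In nuclei these transcripts come from outside the nucleus, and they were a mean of 0.0401% and 0.0348% of counts per control nucleus and 0.0208% and 0.0169% per PP121 nucleus. Their relation to the amount of cytoplasmic RNA in each preparation was not tested.

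In Progenitor 1, 38 of 43 ribosomal protein genes rose and 15 of 21 glycolytic genes rose with the block. Of 12 mitochondrially encoded genes 1 fell there, with a median log2 fold change of -0.62. Their total in Progenitor 1 was 247 and 230 CPM in the controls and 173 and 155 CPM with PP121, with groups apart. Of the 15995 genes tested in both classes 2.89% rose in Progenitor 1 and 0.75% fell. In enteric neurons the ribosomal protein total was 6037 and 5690 CPM in the controls and 5990 and 4787 CPM with PP121, with the groups overlapping. The glycolytic total in neurons was 1259 and 1663 CPM against 1738 and 2370 CPM, and the mitochondrial total 364 and 384 CPM against 160 and 202 CPM.

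**Figure D3:**
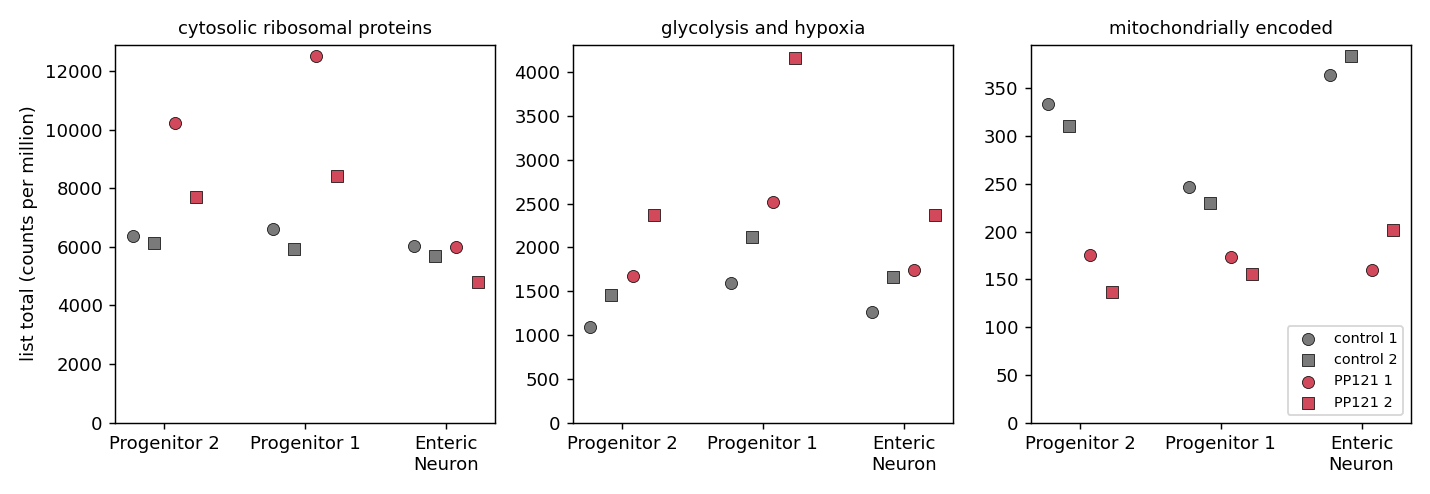
Summed CPM of 3 gene lists in Progenitor 2, Progenitor 1 and enteric neurons, 1 point per sample (circles day 42, squares day 38, grey control, red PP121). The ribosomal protein total of both progenitor classes is higher in the treated samples and that of neurons is not, while the mitochondrially encoded total is lower in treated samples of all 3 classes.

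Genes of the cell cycle rose in part. Of 24 S phase genes 8 rose and none fell (median log2 fold change 0.49), and of 26 genes of G2 and M phase 6 rose and none fell (median 0.34). CDC45, a part of the replicative helicase, had 5.87 and 8.85 CPM in the controls and 20.4 and 17.6 CPM with PP121 (log2 fold change 1.42 ± 0.23, edgeR adjusted p = 9.01e-06), and 0.76 without doublet candidates. MKI67 had 25.4 and 28.997 CPM in the controls and 41.1 and 51.8 CPM with PP121 (log2 fold change 0.76 ± 0.15, edgeR adjusted p = 0.000262). Groups were apart for both. After thinning to 2000 UMIs, MKI67 was found in 3.66% and 3.99% of control nuclei, 6.09% and 5.88% of PP121 nuclei and 0.395% to 1.64% of enteric neurons. The deposited phase calls put 14.1% and 15.7% of control and 20.3% and 25.3% of PP121 nuclei in G2 or M phase, for which an exact permutation test gave p = 0.33, the smallest possible with 2 samples against 2. Nuclei called S phase went the other way, at 35.2% and 34.0% in controls and 32.5% and 31.9% with PP121 (exact permutation p = 0.33). The share of nuclei with any UMI of the G2 and M list after thinning overlapped between groups. It was 45.9% and 43.6% in controls and 42.8% and 49.0% with PP121. For the S phase list it was 67.2% and 66.8% in controls and 70.1% and 67.9% with PP121. Within nuclei called G1, 0 of the 16 S phase and 0 of the 17 G2 and M phase genes tested passed with the block. The paper called phases from scores of S and G2 or M phase gene sets. Choosing G1 nuclei therefore selects nuclei low in such genes, and these counts cannot show whether the genes changed within a phase.

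Targets of the p53 tumour suppressor fell in part. Of 16 tested, 5 fell and none rose, with a median log2 fold change of -0.48, while 2.32% of all genes fell. Their total was 838 and 628 CPM in the controls and 652 and 377 CPM with PP121, so the groups overlapped. Without the block 1 of the 16 had an unadjusted edgeR p under 0.05, against 9.39% of all genes. MDM2, which degrades p53, had 188 and 179 CPM in the controls and 159 and 88.1 CPM with PP121 (log2 fold change -0.62 ± 0.13, edgeR adjusted p = 0.000601), with groups apart. CDKN1A, the cell cycle inhibitor p21, had 25.5 and 9.60 CPM in the controls and 14.1 and 3.66 CPM with PP121, a log2 fold change of -1.03 within days, but its groups overlapped. ZMAT3, the host gene MIR34AHG and TP53INP1 fell by 0.87, 0.91 and 0.59, the first 2 with overlapping groups. The same number, 5 of 16, fell in Progenitor 1.

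Among receptor tyrosine kinases and their ligands, 4 of 25 rose and 2 fell. NRG1 is described above, and NRG3, also a ligand of ERBB4, rose by 0.77 on the log2 scale with overlapping groups. FLT1, a receptor for vascular endothelial growth factor, rose from 9.57 and 14.5 CPM to 30.4 and 19.6 CPM (log2 fold change 1.10 ± 0.21, edgeR adjusted p = 0.000167). It did not pass within G1 nuclei, with equal numbers of nuclei or among nuclei placed in the class by both annotations. IGF1R rose by 0.38, and NRG2 and EGF fell by 0.54 and 0.69. The platelet-derived growth factor receptors did not pass, PDGFRA with 11 and 4 UMIs in the controls and 17 and 19 with PP121, and PDGFRB with 6.96 and 8.28 CPM against 4.28 and 6.99 CPM. ERBB4 had 1384 to 1978 CPM over the 4 samples and an edgeR adjusted p of 0.0517. Of the signalling genes downstream, 0 of 19 in the PI3K and mTOR list and 0 of 6 SRC and ABL kinases passed. Of 18 targets of ERK signalling 1 passed, EGR1, which rose by 0.62. Over all genes tested 4.38% rose and 2.32% fell, so counts from lists this short do not set these lists apart from other genes or from each other. For the PI3K and mTOR list and the SRC and ABL list, 0 and 0 genes had an unadjusted p under 0.05 without the block, against 9.39% of all genes.

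Axon guidance genes changed in both directions, 12 of 35 rising and 2 falling. The netrin receptor gene UNC5C had 178 and 247 CPM in the controls and 397 and 604 CPM with PP121 (log2 fold change 1.22 ± 0.11, edgeR adjusted p = 3.93e-13). SEMA5A, a semaphorin, had 29.5 and 34.8 CPM in the controls and 68.7 and 86.6 CPM with PP121, and SLIT1, a repellent ligand, rose by 0.76. All 3 had groups apart. SEMA3A rose by 1.53 within days with groups that overlapped, and DCC, a netrin receptor, rose by 0.70. UNC5D and NTN1, a receptor and a ligand of the netrin system, fell by 0.66 and 0.47.

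Genes of radial glia and neuroepithelium showed 4 rises and 1 fall among 16. PROM1, a membrane protein of apical progenitors, rose from 8.26 and 21.1 CPM to 27.7 and 47.7 CPM. HES1, a Notch target, rose by 0.65 and was the only 1 of 16 Notch pathway genes that passed. SLC1A3, a glutamate transporter of glia, had 370 and 291 CPM in the controls and 232 and 147 CPM with PP121 (log2 fold change -0.82 ± 0.12, edgeR adjusted p = 2.24e-07). GLI3, which rose by 0.50, and CDON, which rose by 0.87, were the 2 of 9 hedgehog pathway genes that passed. CRABP1, which binds retinoic acid, rose by 1.05 and STRA6, a retinol transporter, by 1.34, the 2 of 12 retinoic acid genes that passed.

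Among the study's own progenitor markers MEF2C fell and MKI67 rose, and the other 5 did not pass. MEF2C, a transcription factor, had 493 and 635 CPM in the controls and 323 and 238 CPM with PP121 (log2 fold change -1.01 ± 0.12, edgeR adjusted p = 3.98e-09). In extracellular matrix genes, 5 of 29 rose and 1 fell, led by the collagens COL11A1 and COL2A1, with COL11A1 at 24.1 and 36.0 CPM in the controls and 52.2 and 86.3 CPM with PP121. LAMA4, a laminin, fell by 0.97. In motile cilia genes 5 of 18 rose and 2 fell, in cadherins 1 of 21 rose and 2 fell, and in glial genes 2 of 13 fell, SLC1A3 and MBP. In 7 tested HOX genes HOXD3 fell, and in 12 proneural and neuron onset genes EBF1 rose.

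Markers of other classes were also detected. The 11 enteric neuron markers summed to 2101 and 1659 CPM in the controls and 1794 and 1581 CPM with PP121, against 7822 to 10785 CPM in enteric neurons and 974 to 1424 CPM in Progenitor 1. Among them NRG1 rose and NRXN3 fell by 0.51 on the log2 scale. The 13 mesenchymal markers summed to 281 and 365 CPM in the controls and 348 and 423 CPM with PP121, against 4873 to 5514 CPM in mesenchymal nuclei. Of these COL11A1 and COL5A2 rose and LAMA4 fell, while the defining gene PRRX1 averaged 2.13 CPM. The 3 epithelial markers summed to at most 10.2 CPM, and none of these lists had a member at 0 in all samples. Between 3.04% and 6.06% of Progenitor 2 nuclei fell in joint clusters of enteric neurons, with overlapping groups. The part of such nuclei in the changes was not tested.

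The difference of the PP121 effect between Progenitor 2 and Progenitor 1 was tested as an interaction with the sample as a block. Only AL356488.3 passed of 19080 genes (0.00524%), and 780 had an unadjusted p under 0.05. This gene had 85 and 23 UMIs in Progenitor 2 of the controls and 21 and 3 with PP121, against 53 and 31 in Progenitor 1 of the controls and 1478 and 16 with PP121. In PP121 replicate 1, 1452 of the 1478 UMIs came from 1 nucleus, and without that sample the interaction was -2.80 (edgeR adjusted p = 0.14). With the replicate number as a further block within each class, 178 genes passed, 42 with the larger PP121-minus-control value in Progenitor 2 and 136 with the smaller.

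WNT3A and BMP5 were among the genes whose call rested on that block. In Progenitor 1, WNT3A had log2 fold change 0.35 and BMP5 0.43, and neither passed. The interaction was 2.59 ± 0.61 (SE) on the log2 scale for WNT3A and 2.56 ± 0.57 for BMP5, at edgeR adjusted p = 0.495 and 0.419 without the further block and 0.00360 and 0.0169 with it. For CASZ1 the interaction was 1.80 (edgeR adjusted p = 0.164 and 9.95e-07). For ROR2 it was 0.86 (edgeR adjusted p = 0.963 and 0.123), and ROR2 rose in Progenitor 1 too. SGIP1 and GRIA2, chosen after their values were seen as the next smallest p-values, had interactions of -1.62 and -1.43, which were -0.33 and -0.34 with joint clusters in place of the deposited classes.

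**Figure D4:**
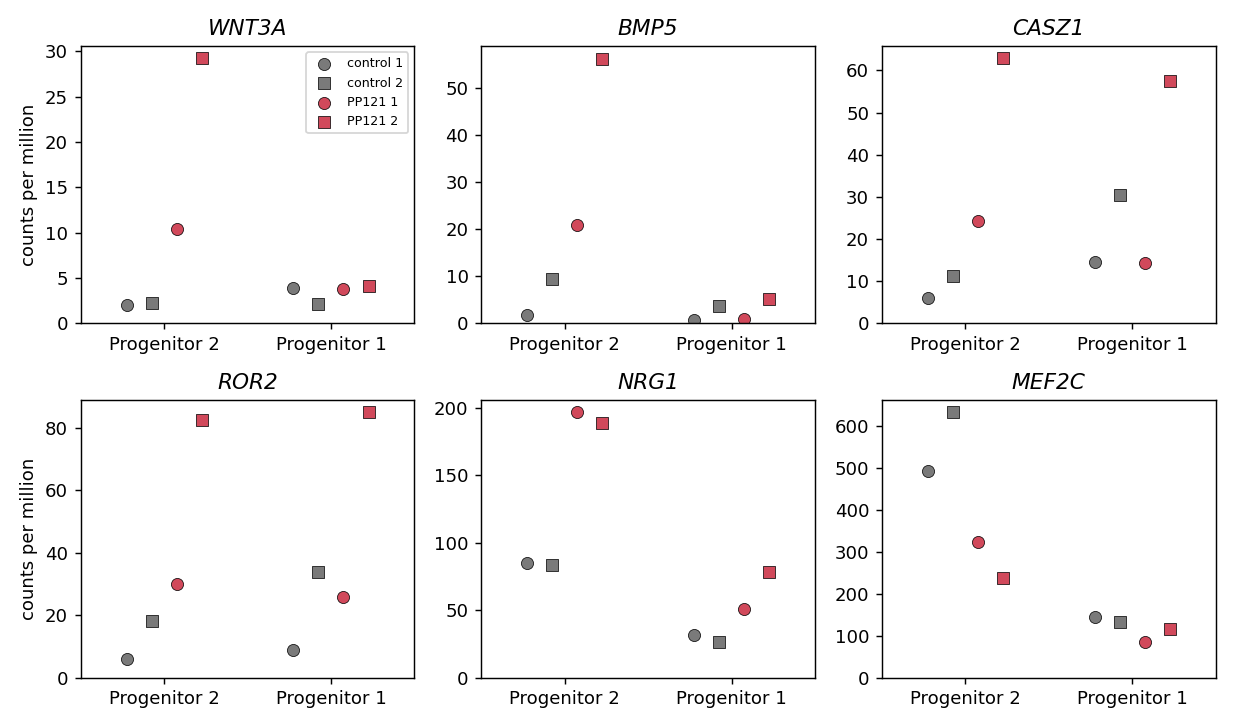
CPM of 6 genes in Progenitor 2 and Progenitor 1, 1 point per sample (circles day 42, squares day 38, grey control, red PP121). WNT3A and BMP5 reach 29.2 and 56.3 CPM in treated Progenitor 2 and stay low in Progenitor 1, ROR2 is high in the treated day 38 sample of both, and NRG1 is above both controls in the treated samples of both.

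Progenitor 2 made up 27.0% and 22.5% of the annotated nuclei of the controls and 24.1% and 29.4% of those of the PP121 samples. The exact 95% intervals, which cover counting error only, were 25.6 to 28.3%, 21.1 to 24.1%, 22.9 to 25.4% and 27.7 to 31.1%. The groups overlapped (24.8% ± 3.13 and 26.7% ± 3.70, SD, n = 2 each, two-sided exact permutation p = 0.667). The day 42 pair differed by -2.83 percentage points and the day 38 pair by 6.82. With joint clusters the shares were 22.8% and 19.9% in the controls and 24.6% and 31.3% with PP121, so that the groups no longer overlapped, at the smallest p the design allows (exact permutation p = 0.33). The differences were then 1.83 points at day 42 and 11.3 at day 38. As a share of every deposited nucleus they were 2.30 and 3.21 points, also with groups apart. That denominator includes nuclei without a class. Annotated nuclei were 4283 of 8531 and 3030 of 4846 in the controls and 4587 of 6987 and 2912 of 4942 with PP121. Without doublet candidates the differences were -2.04 and 7.08 points, and with the control nuclei put back -0.786 and 8.10. The groups overlapped in both of these.

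**Figure D5:**
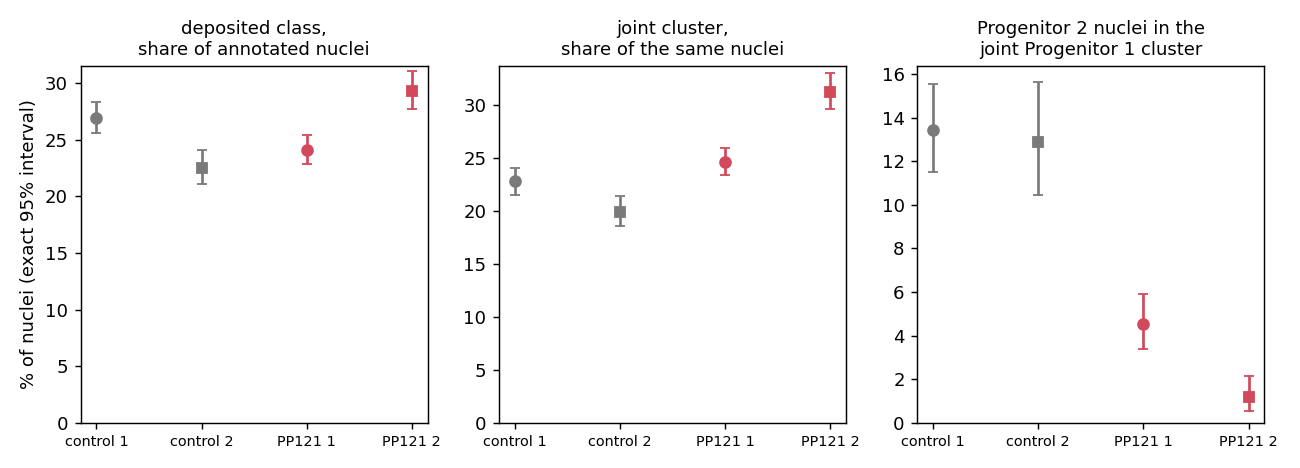
Share of nuclei per sample with exact 95% intervals (counting error only) for the deposited Progenitor 2 class, for the joint cluster of mostly Progenitor 2 nuclei, and for deposited Progenitor 2 nuclei that fell in the joint Progenitor 1 cluster. The groups overlap on the left, the treated samples are higher in the middle and both are lower on the right.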

How the data were processed

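Nuclei of 2 control and 2 PP121 samples were profiled by single-nucleus RNA sequencing (10x Genomics). By their methods the authors quantified UMIs with kallisto and bustools, then demultiplexed, filtered and annotated the nuclei in Seurat (the submitters' processing notes also name Cell Ranger, Seurat 4.0.4 and GRCh38), and deposited whole, unnormalized counts per gene and nucleus with a table of classes, phases and days. The deposited percent of mitochondrial and ribosomal counts per nucleus was used to describe nuclei. A deposited column of sample names differed from the labels for both controls; the labels were used, on which the pairing below rests. Libraries shared 4 to 15 barcodes.

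Counts of Progenitor 2 nuclei were summed per sample. Genes passing edgeR's filter entered its quasi-likelihood test (edgeR 4.0.16, R 4.3.3, TMM, two-sided, Benjamini-Hochberg), without and with the replicate number as a block. The number pairs samples because the annotation dates each to a shared day. Deviations of same-numbered samples from their group means correlated at 0.452 over 11400 genes, and those of crossed numbers at -0.452. With 2 samples per group these values mirror each other, so 1 pairing had to be positive and they do not test the pairing. DESeq2 (1.42.0), other filters, joint Leiden clusters (18 components, resolution 0.2), equal nuclei, doublet removal, G1 nuclei and left-out samples were alternatives. Doublet candidates were the 5% of nuclei per sample with the most simulated doublets among their neighbours. The script was tested on simulated data. Shares have Clopper-Pearson 95% intervals.

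Named genes were the 10 largest rises and 10 largest falls that passed at 0.05, averaged 10 CPM or more and went in 1 direction on both days, the 3 largest of each among clone, antisense and other noncoding or mitochondrial symbols, the 5 smallest p where none passed, the 5 largest in each direction for the class difference, and up to 6 passing members per list. Members and lists were chosen with earlier results of these data known, and the progenitor, neuron, mesenchymal and epithelial markers are the study's. Gene positions are from GENCODE v29. Some results are not reported here.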

Additional observations from a re-analysis of the deposited data

Results flagged for a closer look

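AL356488.3 was the only gene whose PP121 effect differed between Progenitor 2 and Progenitor 1 with the sample as a block (difference of log2 fold changes -5.29, edgeR adjusted p = 0.000241). The difference came with 1452 UMIs in 1 Progenitor 1 nucleus of PP121 replicate 1.

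The share of Progenitor 2 moved in opposite directions on the 2 days, by -2.83 percentage points at day 42 and by 6.82 at day 38. With 1 pair of samples per day this difference was not tested. The directions stayed opposite without doublet candidates (-2.04 and 7.08) and with the control nuclei put back (-0.786 and 8.10). Both days were higher with PP121 when joint clusters were used (1.83 and 11.3) or every deposited nucleus was the denominator (2.30 and 3.21).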

How the results depend on the processing

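Without a block, 0 genes passed. The count was 1267 with the replicate block, 98 with DESeq2's Wald test, 768 without the filter on low counts, and 0 to 1052 when samples were left out (0 without control replicate 1 or 2, 1052 without PP121 replicate 1 and 231 without PP121 replicate 2, where the lone sample was assumed to vary like the others). It stayed at 0 under 9 other settings (1131 to 1812 at an unadjusted p under 0.05). With the block the count of 1267 fell to 0 with no replicate block, 239 with DESeq2's Wald test, 632 with at least 10 counts in every sample, 764 with equal numbers of nuclei, 827 without doublet candidates, 696 in G1 nuclei and 629 with nuclei placed in the class by both annotations (chosen after the data were seen). It was 960 to 1313 under the other 5 settings. For the difference between classes the count of 1 became 178 with the replicate block by class, 0 with at least 10 counts in every sum (542 at an unadjusted p under 0.05), and 17 to 100 when samples were left out. The difference in share was 1.99 percentage points, 6.57 with joint clusters, and -0.621 to 4.61 when samples were left out. Within G1 nuclei, a choice that itself selects for low S and G2 or M phase genes, UHRF1 and TPX2 reversed, to -0.10 and -0.25 on the log2 scale. VCAN, VIM, IGF1R, NRG2, EGF, SMAD6, FLT1, MDM2, TP53INP1, HOXD3 and MBP were among the named genes that no longer passed under 3 or more alternatives besides leaving out the block. No other named gene that passed with the block changed direction under the 12 alternatives to that fit. The causes were not tested. With 2 samples per group, the exact test cannot reach a p under 0.33.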
